A study of Mus musculus with 9 samples.

Results

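The comparison set SV5, a stable NIH 3T3 clone that was transformed with large T antigen of the monkey virus SV40, against NIH 3T3 itself, the mouse embryo fibroblast line from which it was made. It used the 3 arrays of each line, 6 of the 9 arrays of the series; the other 3 arrays are of SV5-NN4, a stable clone with T antigen to which wild-type N-ras was added. Both lines grew in the same medium with calf serum, and total RNA was hybridised to Affymetrix mouse arrays. NIH 3T3 is labelled wild type. SV5 is 1 clone, so T antigen and other properties of that clone cannot be told apart, and nothing in the labels says that the replicates are separate cultures, so the p-values measure a spread between arrays that may be technical.

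T antigen, an oncoprotein of the virus, binds p53 and the pocket proteins of the retinoblastoma (RB) family. In uninfected cells p53 switches on genes of cell cycle arrest and death, and the pocket proteins hold back E2F transcription factors, which drive genes of DNA replication and mitosis. Fibroblasts that carry T antigen are known to grow at low serum and past contact. No signal of the viral transcript was analysed here, so the SV5 label has no check from T antigen itself.

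All values below are log2(intensity + 1), and a difference is the fitted SV5 minus NIH 3T3 value with arrays of equal replicate number paired; a difference of 1 is 2-fold. A probe set was called at a Benjamini-Hochberg adjusted p under 0.05 in limma. A gene measured by several probe sets is given by the brightest of them unless stated. Its other probe sets are given for some genes only and could differ in size or sign. Of 22690 probe sets, 14 were called (0.0617%), 10 higher (0.0441%) and 4 lower (0.0176%) in SV5, and 12 of them carry 1 gene symbol, for 11 genes. Every one of these 12 probe sets had an adjusted p of 0.048, passed 2-fold and had one sign in 3 of 3 pairs; on 6 of the 12 the arrays of both lines did not overlap, which over all genes was so for 2.31% upward and 2.27% downward. By their brightest probe set, 6 of 12393 genes were called (0.0484%).

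The called genes were Mycn, Hacd4, Mpdz, Zfand3, Fam8a1, Dap and Atp1b1, which rose, and Tuba4a, Il13ra1, Gpsm1 and Tm7sf3, which fell. The largest rise was that of Mycn, the gene of the transcription factor N-Myc, and the largest fall that of Tuba4a, an alpha-tubulin. The 250 bases before their annotated starts are shown because these are the genes that moved most in each direction (RefSeq, GRCm38.p6). Both genes lie on the minus strand, with the windows at chr12:12941837-12942086 for Mycn and chr1:75219295-75219544 for Tuba4a, and the letters run 5′ to 3′ on the gene's strand. Capitals mark the words TTTGGCGC and TTTCGCGC, binding words of E2F factors, and CACGTG, the E-box bound by Myc proteins, searched on both strands.
Mycn: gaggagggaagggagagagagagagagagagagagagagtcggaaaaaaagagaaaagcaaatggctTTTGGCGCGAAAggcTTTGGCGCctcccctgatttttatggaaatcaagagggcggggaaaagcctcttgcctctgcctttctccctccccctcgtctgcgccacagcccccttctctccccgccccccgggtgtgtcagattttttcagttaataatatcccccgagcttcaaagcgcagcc
Tuba4a: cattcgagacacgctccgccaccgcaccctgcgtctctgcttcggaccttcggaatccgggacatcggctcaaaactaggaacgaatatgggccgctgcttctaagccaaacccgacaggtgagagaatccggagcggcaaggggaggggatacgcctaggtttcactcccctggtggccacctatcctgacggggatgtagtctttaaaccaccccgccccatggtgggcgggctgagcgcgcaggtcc

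The Mycn window held 3 E2F words. Counted from the start, TTTGGCGC began at -183 and -168 on the gene's strand, and TTTCGCGC lay on the other strand from -179 to -172, overlapping the first of them. Of 32851 promoter windows of this length, 215 (0.654%) held at least 1 of these words and 2 held 3, the windows of Mycn and of Mcm6, a subunit of the replicative helicase. The difference of Mcm6 between SV5 and NIH 3T3 was -0.24 (adjusted p = 0.728). No CACGTG was in the Mycn window, and the Tuba4a window held none of these words; 6.02% of all windows held CACGTG. A match describes the letters only.

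Mycn read 6.27, 7.04 and 6.12 on NIH 3T3 replicates 1 to 3 and 11.82, 11.09 and 12.57 on SV5 replicates 1 to 3. The lowest SV5 array lay far above the highest NIH 3T3 array. The fitted difference was 5.35 (SE 0.41, 95% interval 4.39 to 6.31, adjusted p = 0.048 in limma), a 40.8-fold higher level in SV5. The pairs gave 5.55, 4.05 and 6.45. In SV5-NN4 the level was 12.76 ± 0.51 (SD, n = 3), and the difference of 0.93 from SV5 was not called (adjusted p = 0.4). The other 2 Mycn probe sets differed by -0.27 and 0.14, so that the mean of all of them differed by 1.74.

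Tuba4a read 9.83, 10.46 and 10.34 on the NIH 3T3 arrays and 7.13, 8.12 and 7.53 on the SV5 arrays. The lines did not overlap, and the pairs lay close together at -2.70, -2.34 and -2.80. The fall was 6.12-fold (difference -2.61, SE 0.22, adjusted p = 0.048). SV5-NN4 read 6.31 ± 0.40, which was -3.90 from NIH 3T3 (adjusted p = 0.0018). The other 2 Tuba4a probe sets differed by -1.06 and -0.15, and the mean of all of them by -1.27. Alpha-tubulin and beta-tubulin pair to build microtubules. Among 19 measured tubulin genes and tubulin cofactors the median difference was -0.05, and besides Tuba4a the largest difference was that of Tubb2b, at -1.13 (adjusted p = 0.151).

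**Figure D1:**
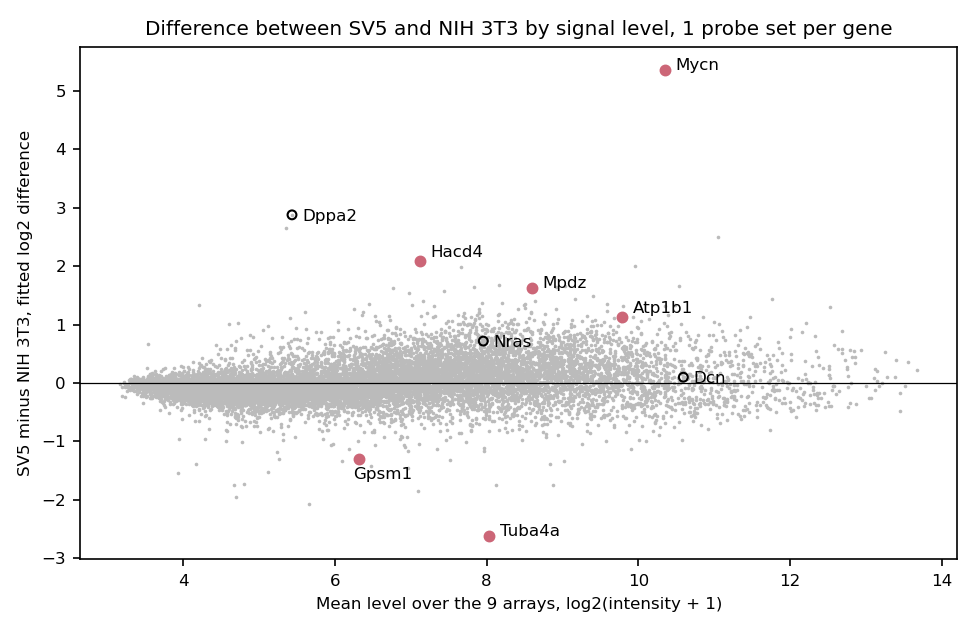
Fitted log2 difference between SV5 and NIH 3T3 (vertical) against the mean level over the 9 arrays (horizontal, log2 of intensity + 1), with 1 point for each of 12393 genes. Red points are the 6 genes called at their brightest probe set and open circles mark 3 uncalled genes; Mycn stands apart at 5.35 and Tuba4a at -2.61, while Dcn lies at 0.10.

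Hacd4, a dehydratase of very-long-chain fatty acid elongation, read 5.65, 6.86 and 6.16 in NIH 3T3 and 8.16, 8.38 and 8.39 in SV5. All SV5 arrays were above all NIH 3T3 arrays, and the SV5 arrays spanned a much narrower range. Hacd4 rose by 2.09 (SE 0.21, adjusted p = 0.048). In SV5-NN4 it read 6.83 ± 0.61, -1.48 from SV5 (adjusted p = 0.034) and 0.61 from NIH 3T3 (adjusted p = 0.2). At the probe sets called here, Hacd4 was the one gene that was also called between SV5-NN4 and SV5.

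Mpdz, a scaffold with many PDZ domains at cell junctions, read 8.02, 6.56 and 8.65 in NIH 3T3 and 9.45, 8.63 and 10.05 in SV5. The lines overlapped by a single array each, while every pair moved up by 1.39 to 2.07. The difference was 1.63 (SE 0.18, adjusted p = 0.048), and the other Mpdz probe set gave 0.16. Atp1b1, the beta subunit of the sodium-potassium pump, read 8.45, 9.27 and 9.88 in NIH 3T3 and 9.69, 10.26 and 11.03 in SV5. It was called at 2 probe sets, with differences of 1.13 and 1.18 (SE 0.12 for both), and its other probe sets reached down to -0.25. The lines overlapped, and the pairs gave 1.24, 0.99 and 1.15.

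Gpsm1, which holds inhibitory G protein alpha subunits in their inactive form, read 6.39, 7.49 and 6.97 in NIH 3T3 and 4.86, 6.40 and 5.72 in SV5. The highest SV5 array was level with the lowest NIH 3T3 array, and all 3 pairs fell, by 1.09 to 1.53. The difference was -1.29 (SE 0.13, adjusted p = 0.048), against -0.26 and 0.01 at its other 2 probe sets. The list of heterotrimeric G protein signalling held 32 measured genes, with a median of -0.02. At an unadjusted p under 0.05, 6 of them were higher and 4 lower. All of these were among its 26 genes at or above the median probe set level in the higher line. Over all such genes 14.4% were higher and 6.38% lower. Without NIH 3T3 replicate 1 the counts of the list were 7 and 8.

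For 5 of the 11 called genes the call came from a dimmer probe set and the brightest one differed little. Dap, a negative regulator of autophagy, read 8.90, 8.46 and 9.68 in NIH 3T3 and 10.23, 9.68 and 10.73 in SV5 at the called probe set, a difference of 1.20, but 0.16 at the brightest. Fam8a1, a cofactor of the ubiquitin ligase that clears misfolded proteins from the endoplasmic reticulum, read 7.71, 6.69 and 8.29 against 9.09, 8.31 and 9.46, a difference of 1.39, but 0.01 at the brightest. Zfand3, a zinc finger protein, read 4.91, 4.67 and 6.17 against 6.09, 6.39 and 7.67, a difference of 1.46, but 0.05 at the brightest. At these called probe sets the lines overlapped for Dap and Zfand3 and did not for Fam8a1. Il13ra1, a receptor chain for interleukins 4 and 13, read 5.74, 5.75 and 5.11 in NIH 3T3 and 4.03, 4.63 and 3.89 in SV5, a difference of -1.35 with no overlap, but 0.04 at the brightest. Its SV5 values of 4.03 and 3.89 lay within the range of the bacterial controls, 3.18 to 4.25, so the size of this fall is uncertain. Tm7sf3, a membrane protein, read 7.80, 7.94 and 8.30 against 6.73, 6.79 and 7.28, a difference of -1.08 with no overlap, but -0.16 at the brightest. Which transcripts each probe set detects was not analysed here, so these 5 calls are of probe sets and not of all transcripts of the gene.

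**Figure D2:**
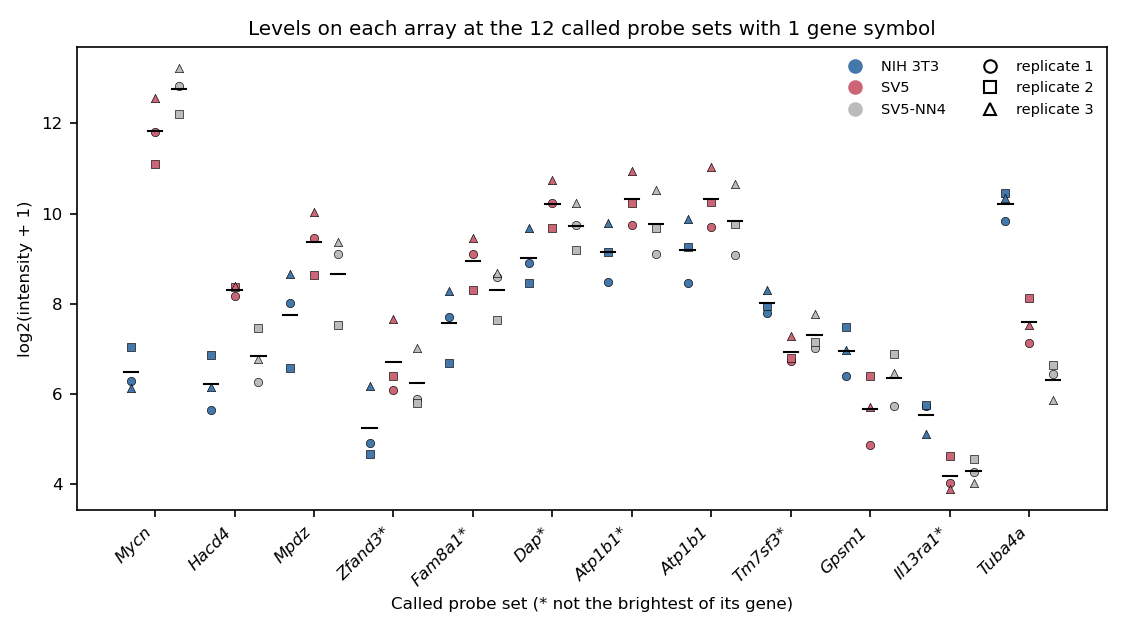
Level of each array (log2 of intensity + 1, vertical) at the 12 called probe sets with 1 gene symbol (horizontal), for NIH 3T3 (blue), SV5 (red) and SV5-NN4 (grey); marker shape is the replicate number, bars are means of 3 arrays and a star marks a probe set that is not the brightest of its gene. Mycn is high in both clones, Hacd4 is high in SV5, and for Atp1b1 the lines overlap while each replicate number moves by 0.99 to 1.24 at the brightest probe set.

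These calls rested on all 9 arrays. All 14 probe sets were called again without NIH 3T3 replicate 1, when 49 were called (0.216%), but leaving out NIH 3T3 replicate 2 left 1, leaving out replicate 3 of that line left 3, and the count was 0 when any array of SV5 or of SV5-NN4 was left out. At an unadjusted p under 0.05 there were 3225 probe sets where chance gives 1134.5. Fitted without pairing, Mycn alone was called (adjusted p = 0.018).

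A measure of RNA quality differed between the lines while other ratios were less even between pairs, and that holds beside every result here. The log2 ratio of the 3' to the middle Gapdh control probe set, which grows as RNA is degraded or copied incompletely, was 2.36 ± 0.19 in NIH 3T3 and 1.41 ± 0.41 in SV5 (SD, n = 3), lower in SV5 in 3 of 3 pairs, with an exact two-sided permutation p of 0.1, the smallest that 3 against 3 arrays allow. For Actb the 3' to 5' ratio was 4.58 ± 0.43 and 3.49 ± 0.98 (exact p = 0.2), with pair differences of -0.52, -0.10 and -2.65. The other ratios changed sign between pairs. The pairs gave -0.19, 0.04 and -2.84 for Gapdh 3' to 5' (exact permutation p = 0.3). They gave 0.27, -0.30 and -1.47 for Actb 3' to middle (exact permutation p = 0.4). The part of RNA quality in the results was not tested. Median intensities of the 6 arrays were 57.2 to 62.4 and upper quartiles 165.2 to 235.0. The upper quartile was higher in SV5 in 3 of 3 pairs. Fibroblast markers fitted the label: 16 of 18 lay at or above the median probe set level of 5.93 with a median level of 10.15, and 1 lay at the level of the bacterial controls, against median levels of 4.44 to 5.69 for the lists of 7 other cell types. The summed intensity of the fibroblast markers was 36260 to 60304 in NIH 3T3 and 52435 to 72433 in SV5.

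Over all genes, 1124 of 12393 (9.07%) were higher and 738 (5.95%) lower in SV5 at an unadjusted p under 0.05. Among the 7370 genes whose mean in the higher line reached the median probe set level, the shares were 14.4% and 6.38% and the median difference was 0.07, against -0.10 in the 5023 dimmer genes. Arrays without overlap were found for 3.42% and 2.4% of these brighter genes. Differences of at least 2-fold were found for 127 genes upward and 35 downward; 36 and 16 of them had one sign in 3 of 3 pairs and no overlap. The pairs were unlike each other across genes. Pair 1 had 542 genes 2-fold higher and 482 lower, pair 2 had 525 and 86, and pair 3 had 461 and 155. Pearson's r between the pairs' differences was 0.14 for pairs 1 and 2, -0.0038 for pairs 1 and 3 and 0.32 for pairs 2 and 3, across 12393 genes, which are not independent replicates.

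The pocket proteins and p53 targets came next, as the textbook partners of T antigen. Rb1 read 7.18, 6.95 and 7.39 in NIH 3T3 and 6.12, 7.36 and 7.55 in SV5, a difference of -0.17 (95% interval -0.78 to 0.45). Rbl1 differed by 0.16 (-1.03 to 1.36), and its NIH 3T3 arrays spread from 5.37 to 7.87. Rbl2, the p130 gene, read 4.67, 4.74 and 4.57 against 5.41, 5.17 and 6.32, without overlap, with a difference of 0.97 that was not called (adjusted p = 0.172). Cdkn1a, the p21 inhibitor of cyclin-dependent kinases and a p53 target, differed by 0.54 (-0.05 to 1.14). Mdm2, the p53 ubiquitin ligase and itself a p53 target, differed by 0.61 (0.03 to 1.20), and neither gene was called. The other probe set of each gene had the opposite sign, at -0.24 for Cdkn1a and -0.52 for Mdm2. Of 29 measured p53 targets, 1 was higher (Mdm2) and 2 lower (Gadd45a at -0.73 and Dram1 at -0.69) at an unadjusted p under 0.05, 0 were called, and the median was 0.06, or -0.01 without NIH 3T3 replicate 1. The higher and lower shares were 3.45% and 6.9%, against 9.07% and 5.95% over all genes.

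Among 32 measured RB family, E2F and G1 genes, 3 were higher and 1 lower, or 6 and 2 without NIH 3T3 replicate 1. With all arrays these were 9.4% and 3.1%, against 9.07% and 5.95% over all genes. The share over all genes without NIH 3T3 replicate 1 was not counted here. Ccnd3, cyclin D3, read 7.28, 7.79 and 8.06 in NIH 3T3 and 8.13, 9.06 and 8.90 in SV5 (difference 0.99, adjusted p = 0.116), and E2f3 differed by -0.50. Of 44 measured genes of DNA replication, most of them E2F targets, 4 were higher and 0 lower, with a median of 0.11. The 4 were among its 39 brighter genes, to be read against the 14.4% of all brighter genes that were higher. Fitted without pairing, 0 were higher. Mcm5 and Mcm7, helicase subunits, differed by 0.87 and 0.47, and Pold2 and Pole, polymerase subunits, by 0.41 and 0.38; none was called. Of 39 mitosis genes, 1 was higher (Bub1b, 0.53) and 4 lower, among them Kif2c at -0.61 and Incenp at -0.59, and the median was -0.02. The shares were 2.56% and 10.3%, against 9.07% and 5.95% over all genes. All were among its 35 brighter genes, to be read against 14.4% and 6.38% of all brighter genes. The other probe sets of Kif2c differed by -0.25 to -0.14 and those of Incenp by 0.27 and 0.14.

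NIH 3T3 replicate 1 set the values of these proliferation lists. In pair 1 the median of the replication genes was -0.26 and of the mitosis genes -0.34, while pairs 2 and 3 gave 0.33 and 0.27 for replication and 0.08 and 0.27 for mitosis. Without that array, 16 replication genes were higher and 0 lower at an unadjusted p under 0.05, with a median of 0.32, and 8 mitosis genes were higher and 0 lower, with a median of 0.27. The share over all genes without that array was not counted here. The direction of the mitosis list thus turned on 1 array.

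Myc proteins act with Max and are opposed by the Mxd proteins. Of 16 measured genes of that network, 3 were higher, Mycn with Mxi1 (0.67) and Ruvbl2 (0.71), and 0 lower; Myc itself differed by 0.21 and Max by -0.44, neither called. Of 34 genes of ribosome biogenesis and known Myc targets, 1 was higher and 1 lower and the median was 0.01. Of these genes 32 are bright, and their median was 0.04, against 0.07 for all brighter genes. Without NIH 3T3 replicate 1, 6 were higher and 1 lower. In the fit of all arrays 14.4% of all brighter genes were higher and 6.38% lower. With all arrays the higher one was Ldha, lactate dehydrogenase, at 0.55 (adjusted p = 0.311). The lower one was Polr1a, the largest subunit of RNA polymerase I, at -0.54, and its other probe sets differed by 0.20 and -0.17.

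Neighbouring genes were read because Mycn stood so far apart; this was decided after its value was seen. The order of genes is that of RefSeq GRCm38.p6. Ddx1, an RNA helicase gene next to Mycn, read 8.66, 7.75 and 9.63 in NIH 3T3 and 10.43, 8.72 and 10.11 in SV5. It overlapped between the lines and was higher in 3 of 3 pairs, by 1.77, 0.97 and 0.48, but was not called (difference 1.07, SE 0.26, adjusted p = 0.157). In SV5-NN4 it read 9.83 ± 0.95, 1.15 above NIH 3T3. The next measured gene on that side, Lratd1, had pair differences between -0.02 and 0.32, and beyond it Trib2, a pseudokinase gene, differed by 1.03. On the other side Tubb2a-ps2, Vsnl1 and Msgn1 had pair differences between -0.62 and 0.09, and Smc6 pair differences between -0.12 and 0.54. Farther out on that side, Rdh14 differed by 0.72 (pairs 0.43, 1.07 and 0.67, adjusted p = 0.131) and Osr1, a transcription factor gene, by 0.76 (pairs 0.62, 1.05 and 0.60, no overlap, adjusted p = 0.125).

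**Figure D3:**
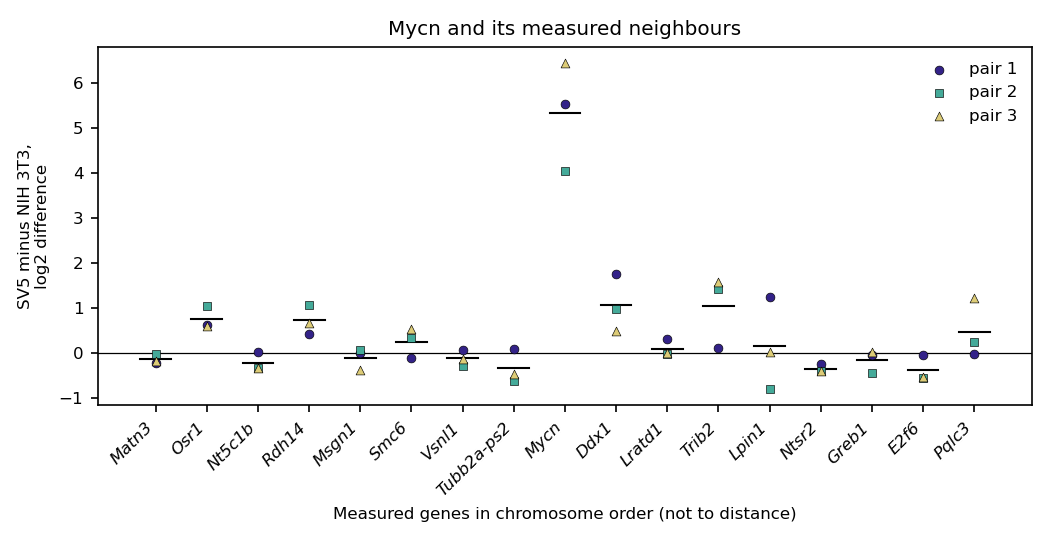
Log2 difference between SV5 and NIH 3T3 for Mycn and the 8 nearest measured genes on each side, in chromosome order and not to distance; points are the 3 replicate pairs and bars the fitted difference. Mycn lies between 4.05 and 6.45 in its pairs and Ddx1, next to it, between 0.48 and 1.77.

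The largest differences among brighter genes with one sign in 3 of 3 pairs, no overlap and an unadjusted p under 0.05 were, upward after Mycn, those of Dppa2 and Hacd4. Dppa2, a chromatin factor of early embryos and pluripotent cells, read 4.24, 4.81 and 3.79 in NIH 3T3 and 7.45, 6.20 and 7.83 in SV5. It went from a level near that of the bacterial controls, 3.18 to 4.25, to one above the median probe set, with a difference of 2.88 (SE 0.44, adjusted p = 0.11), and its other probe set gave 1.12. Of the NIH 3T3 arrays 1 lay above the range of those controls, so the size and rank of this difference are uncertain. In SV5-NN4 it read 4.87 ± 0.32. Apart from Mycn, Hacd4 and Tuba4a, none of the 15 largest in either direction was called.

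Zfhx4, a large zinc finger and homeodomain factor, read 6.43, 6.65 and 7.25 in NIH 3T3 and 8.47, 7.76 and 10.04 in SV5 (difference 1.98). Adamts1, a secreted protease that cleaves proteoglycans, read 8.07, 8.96 and 9.56 against 10.51, 10.46 and 10.57 (difference 1.65). The SV5 arrays of Adamts1 were nearly level, and SV5-NN4 read 7.73 ± 0.33, -2.79 from SV5 (adjusted p = 0.0082). Prpf8, a core protein of the spliceosome, read 7.52, 7.63 and 8.38 against 9.51, 9.37 and 9.59 (difference 1.65), with 9.40 ± 0.26 in SV5-NN4. Sema3a, a secreted repulsive guidance cue, read 8.05, 7.77 and 7.84 against 9.74, 8.89 and 9.07 (difference 1.35). Mylk, the myosin light chain kinase, differed by 1.36, Selenon, a selenoprotein of the endoplasmic reticulum, by 1.34, and Ampd3, an AMP deaminase, by 1.33.

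Some large differences were uneven between pairs. Aldh1a7, an aldehyde dehydrogenase, read 5.98 on NIH 3T3 replicate 1 and 9.49 and 9.83 on replicates 2 and 3, against 10.12 to 10.64 in SV5; its difference was 1.99, and 0.73 without that array. Gstm1, a glutathione S-transferase, had pairs of 2.63, 0.70 and 0.62. Rplp0, a protein of the ribosomal stalk, had pairs of 1.96, 1.94 and 0.41, Ttc8, a subunit of the ciliary BBSome, 1.81, 0.20 and 2.17, and Psme3, a proteasome activator, 0.39, 0.96 and 2.23. The other Psme3 probe sets had the opposite sign, at -0.36 and -0.34. For Aldh1a7 and Gstm1 pair 1 held most of the difference, while for Rplp0 and Ttc8 a single pair was small.

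Downward, the largest after Tuba4a was Kdm5d, a histone demethylase gene of the Y chromosome, which read 5.10, 6.47 and 6.82 in NIH 3T3 and 4.23, 4.68 and 4.32 in SV5 (difference -1.72, adjusted p = 0.144). Its other probe sets differed by -0.26 and -0.16. The lowest SV5 array of Kdm5d lay within the range of the bacterial controls, 3.18 to 4.25. Lum, the matrix proteoglycan lumican, read 5.42, 5.71 and 7.64 against 4.96, 4.47 and 4.76 (difference -1.53). NIH 3T3 replicate 3 stood apart as the high array for Lum, while for Kdm5d replicate 1 stood apart as the low one. Cds2, an enzyme that makes CDP-diacylglycerol for phosphoinositides, read 9.53, 8.67 and 9.35 against 8.29, 6.92 and 8.17 (difference -1.39), and SV5-NN4, at 9.54 ± 0.58, was 1.75 above SV5 (adjusted p = 0.038). The other Cds2 probe sets differed by -0.47 to -0.13. Ehd1, an ATPase of endocytic recycling, read 10.24, 10.69 and 10.21 against 9.20, 9.83 and 8.72 (difference -1.13). Its other probe sets differed by -0.24 to -0.06. Olfm1 and Golt1b differed by -1.42 and -1.46, Mgst1, a membrane glutathione transferase, by -1.33 and Ptprm, a receptor phosphatase that binds its like on other cells, by -1.15. The rest of these 15 genes, C1galt1, Mfsd6, Enoph1, Pmepa1, Ddx39a and C1qtnf1, lay between -1.11 and -0.97. At the other probe set of Enoph1 the difference was 0.36, and at that of C1galt1 0.02.

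**Figure D4:**
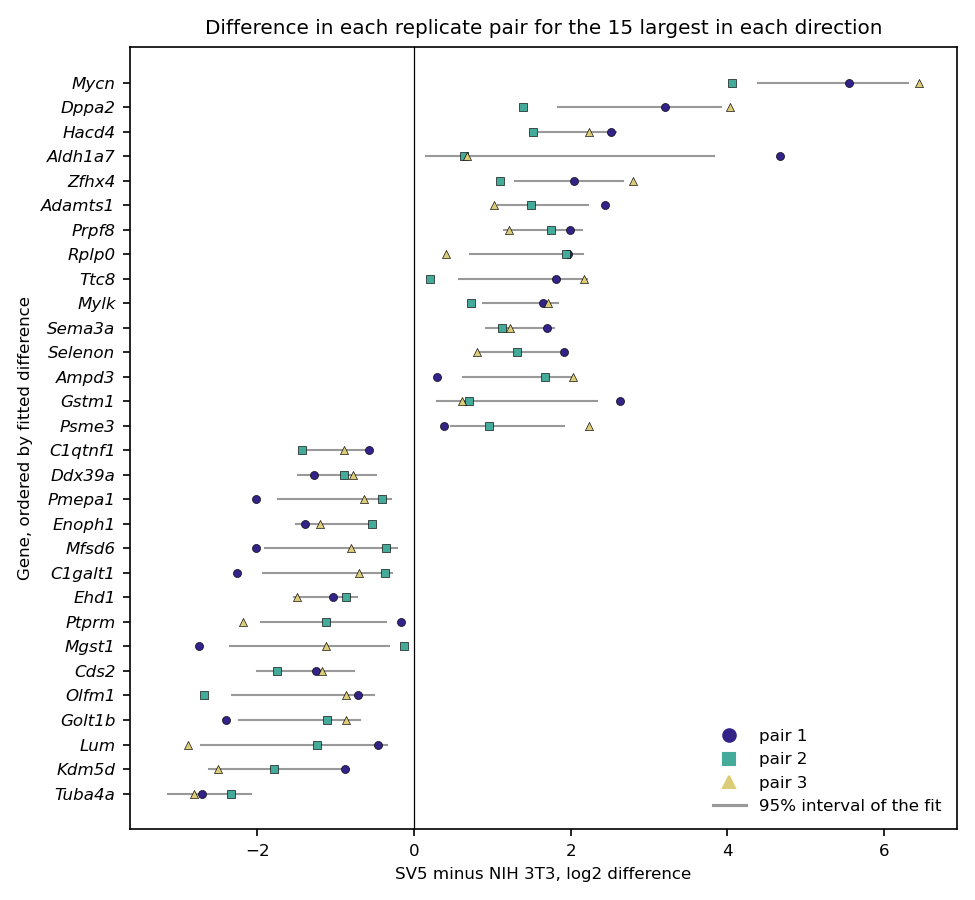
Log2 difference between SV5 and NIH 3T3 in each replicate pair (points) with the 95% interval of the fit (grey lines) for the 15 largest differences in each direction. Mycn, Hacd4 and Tuba4a were called; Aldh1a7 shows 1 pair at 4.67 with the others at 0.64 and 0.68.

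Matrix genes are the main products of fibroblasts. Of 24 measured collagen chains, 6 were higher and 2 lower (25% and 8.33%), 17 were above 0 and the median was 0.20. Without NIH 3T3 replicate 1 the median was 0.09, and the pairs gave 0.31, 0.09 and 0.05. Col6a3, a chain of the beaded microfibril collagen, read 8.21, 7.92 and 9.77 in NIH 3T3 and 10.13, 9.58 and 10.38 in SV5 (difference 1.40, adjusted p = 0.116), and Col6a1 of the same trimer differed by 0.97. Col3a1, a fibrillar chain near the top of the scale at 11.51 to 12.56, differed by 0.52. Of 17 collagen processing enzymes, 5 were higher and 0 lower with a median of 0.37. The higher members of both lists were brighter genes, 6 among 18 brighter chains and 5 among 15 brighter enzymes. Among all brighter genes 14.4% were higher. The lysyl oxidases Loxl1 and Lox, which crosslink collagen and elastin, differed by 1.14 and 0.81, P4hb, a subunit of the prolyl hydroxylase, by 0.73 and Crtap, a partner of another prolyl hydroxylase, by 0.58.

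Of 34 matrix glycoproteins, 7 were higher and 4 lower. Among the 30 brighter ones 7 were higher and 2 lower, against 14.4% and 6.38% of all brighter genes. Fn1, fibronectin, read 11.70, 10.95 and 13.26 in NIH 3T3 and 12.74, 12.68 and 13.54 in SV5 (difference 1.02), and Sparc and Vcan differed by 0.87 and 0.86. The opposite sign was found for Tgfbi, at -1.75 (adjusted p = 0.322). Of 11 small leucine-rich proteoglycans, Aspn (1.63), Ogn (1.04) and Omd (0.43) were higher and Lum lower. Dcn, decorin, read 11.72, 11.90 and 11.40 against 10.94, 12.48 and 11.90 (difference 0.10, 95% interval -0.99 to 1.19). Aspn read 4.64 on NIH 3T3 replicate 1 and 7.92 and 7.85 on the other 2 arrays. No matrix gene of these lists was called.

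Mitochondrial genes made up another list with many differences of one sign. Of 46 measured subunits of oxidative phosphorylation, 14 were higher and 1 lower (30.4% and 2.17%), 38 were above 0 and the median was 0.26. Fitted without pairing, 3 were higher and 0 lower. Atp5b, the catalytic subunit of ATP synthase, read 9.46, 7.98 and 11.32 in NIH 3T3 and 10.47, 10.06 and 12.22 in SV5 (difference 1.33, adjusted p = 0.116). It was higher in every pair, while the replicate numbers differed more than the lines. Atp5g1, a subunit of the membrane ring of the same enzyme, differed by 1.0, Cox8a of cytochrome oxidase by 0.82 and Sdhb of succinate dehydrogenase by 0.77. Nearly all of this list is bright, 45 of 46 genes, so the share to read it against is the 14.4% of brighter genes. The list's median was 0.29, 0.53 and 0.03 in the 3 pairs.

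Lipid genes were mixed. Of 24 genes of cholesterol synthesis and uptake, 7 were higher and 1 lower (29.2% and 4.17%), with Msmo1 (0.95), Fdps (0.80), Sqle (0.66) and Nsdhl (0.50), all enzymes of the pathway, among the higher ones, and a median of 0.09; without NIH 3T3 replicate 1, 7 were higher and 4 lower. Of 37 genes of fatty acid metabolism, 9 were higher and 3 lower. They ran from Hacd4 at the top, through Hadha (1.01) of mitochondrial beta-oxidation and the desaturase Fads1 (0.73), to the elongase Elovl1 at -0.59. The other Elovl1 probe sets differed by 1.02 and -0.54. In glycolysis, Pkm and Pfkl, which encode pyruvate kinase and a phosphofructokinase, differed by 1.16 and 0.94. Of 29 genes of that list, 4 were higher and 1 lower, or 7 and 1 without NIH 3T3 replicate 1. Brighter genes were 24 of the 24 cholesterol genes, 28 of the 37 fatty acid genes and 22 of the 29 glycolysis genes. The higher members of these lists, 7, 9 and 4, were all among them. The share to read them against is the 14.4% of all brighter genes that were higher. Fitted without pairing, 0, 1 and 1 members of these lists were higher.

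Several lists had more members lower than higher at an unadjusted p under 0.05, among them those of interferon-stimulated genes, Wnt genes, growth factors and retinoid and nuclear receptor genes (1 higher and 4 lower of 29, or 3 and 6 without NIH 3T3 replicate 1). Over all genes 9.07% were higher and 5.95% lower, and among all brighter genes 14.4% and 6.38%. The median difference of the dimmer genes was -0.10. Of the retinoid and nuclear receptor genes 18 were brighter, with 1 higher and 2 lower. Of 33 interferon-stimulated genes, 1 was higher and 5 lower (3.03% and 15.2%), 26 were below 0 and the median was -0.19, or -0.10 without NIH 3T3 replicate 1; Ifih1, a sensor of viral RNA, differed by -0.50, Irf7, the factor that amplifies the interferon response, by -0.46 and Oas1a by -0.39. Of 39 Wnt genes, 0 were higher and 4 lower, or 8 lower without NIH 3T3 replicate 1. Sfrp2, a secreted Wnt antagonist, read 4.17, 6.93 and 7.25 in NIH 3T3 and 3.99, 4.63 and 3.87 in SV5 (difference -1.95, adjusted p = 0.23), and Ror2, a Wnt receptor kinase, differed by -0.74. The Sfrp2 values of 4.17, 3.99 and 3.87 lay within the range of the bacterial controls, 3.18 to 4.25. Of 30 growth factors and genes of the insulin-like growth factor axis, 1 was higher (Vegfc, 0.77) and 4 lower, with Pdgfa at -0.57. These were 3.33% and 13.3%, and all were among its 21 brighter genes. In the other lists, 16 of the 33 interferon-stimulated genes and 18 of the 39 Wnt genes reached the median probe set level. Among those 18 Wnt genes 1 was lower and the median was 0.07, the same as that of all brighter genes. Of the 16 brighter interferon-stimulated genes 1 was higher and 2 lower, and the median was -0.14. Ifih1 and Irf7 were not among them. Ifih1 averaged 4.44 in NIH 3T3 and 3.94 in SV5, the latter within the range of the bacterial controls, and Irf7 averaged 5.62 and 5.16.

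Cell-surface genes included large differences of both signs. Cd34, a sialomucin of progenitor cells and some fibroblasts, read 7.13, 6.46 and 8.32 in NIH 3T3 and 8.0, 8.97 and 9.98 in SV5 (difference 1.68, adjusted p = 0.12). Gpc4, a membrane-anchored heparan sulfate proteoglycan, read 9.08, 10.32 and 10.66 against 7.22, 9.21 and 8.42 (difference -1.74, adjusted p = 0.0933). Sdc1, syndecan 1, differed by -0.88 and Thy1, a surface marker of fibroblasts, by -0.70. Thy1 read 10.20 to 10.30 in NIH 3T3 and 9.47 to 9.74 in SV5, with no overlap. Pdgfra, the receptor for platelet-derived growth factors and also a fibroblast marker, read 11.38, 10.94 and 11.99 against 11.99, 12.22 and 12.81 (difference 0.91), and Dlk1, an imprinted Notch ligand, differed by 1.32. Nras, the gene added in SV5-NN4, read 7.42, 7.10 and 7.85 in NIH 3T3 and 8.43, 7.76 and 8.34 in SV5, a difference of 0.72 (95% interval 0.38 to 1.05, adjusted p = 0.125).

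Of the 45 pathway lists, 39 held no gene called at its brightest probe set. The list counts at an unadjusted p under 0.05 rest on the pairing, which comes from the data. Fitted without pairing, the higher members fell from 14 to 3 in oxidative phosphorylation and from 7 to 0 among cholesterol genes. Collagen processing enzymes fell from 5 to 3 higher members. Lower interferon-stimulated genes fell from 5 to 1, while the Myc network kept its 3 higher members. The share over all genes without pairing was not counted here.

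**Figure D5:**
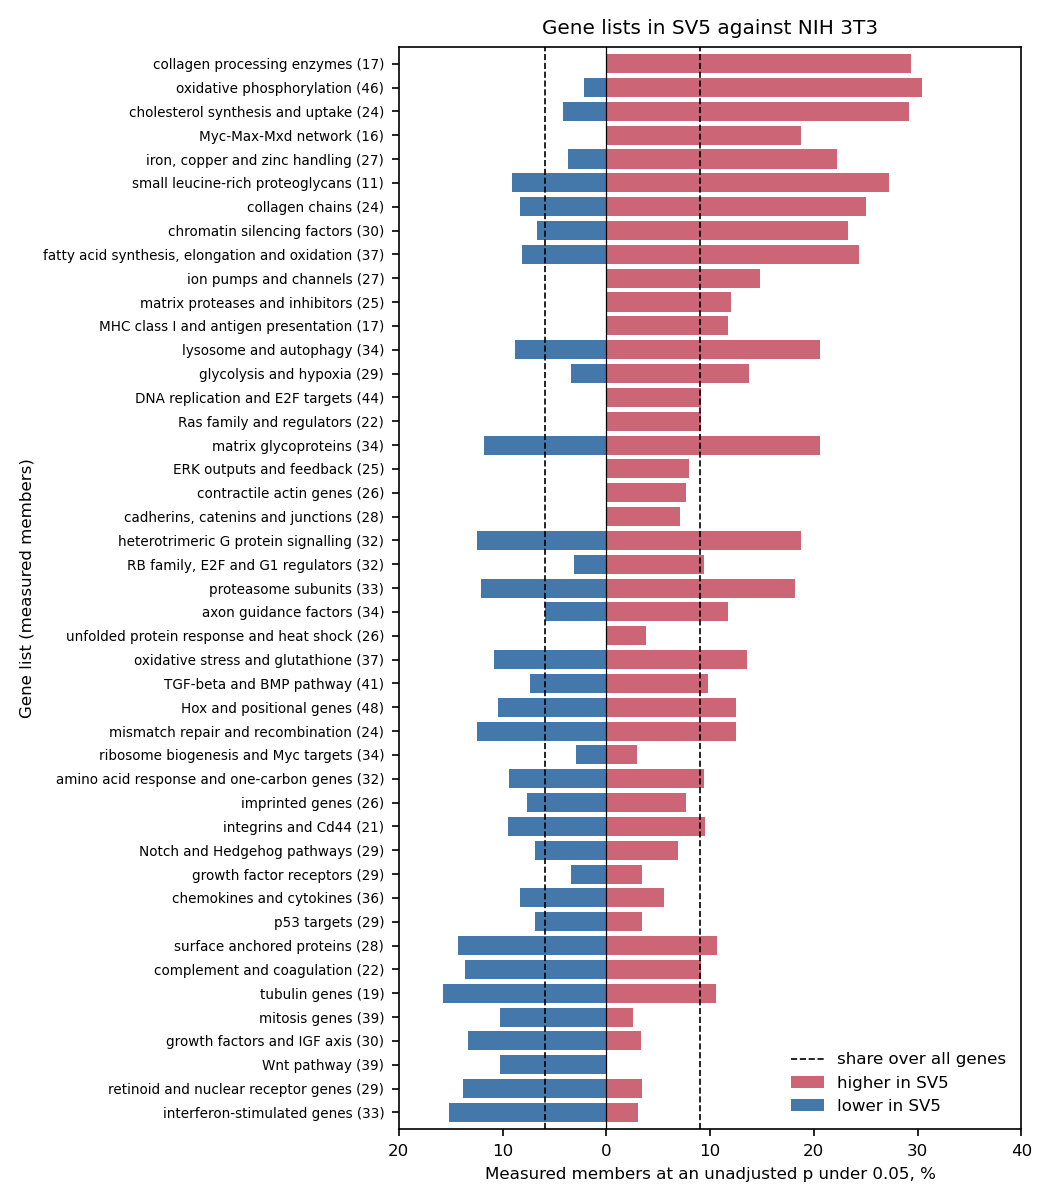
Share of the measured members of each of 45 gene lists at an unadjusted p under 0.05, higher in SV5 to the right and lower to the left, in percent; dashed lines are the shares over all genes, 9.07% and 5.95%. Collagen processing enzymes, oxidative phosphorylation and cholesterol genes lie at 29.4%, 30.4% and 29.2% on the higher side, and interferon-stimulated genes at 15.2% on the lower side. Those lists on the higher side are mostly of brighter genes (15 of 17, 45 of 46 and 24 of 24). Among all brighter genes 14.4% were higher, a share that is not drawn. All shares are from the paired fit, and without pairing the higher members of those lists were 3, 3 and 0.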

How the data were processed

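The authors deposited linear intensities made with RMA, per the submitters' processing notes; no version or setting of RMA is given in the sources used here. RMA normally sets arrays to a common distribution, which would hide a shift common to most genes. The values used here were not on a common distribution. Upper quartiles were 173.8, 165.2 and 218.7 in NIH 3T3 replicates 1 to 3. In SV5 replicates 1 to 3 they were 184.8, 187.3 and 235.0, higher in each pair, while the medians were not. How far this offset entered the differences of bright and dim genes was not tested. Each array gave 22690 probe sets, of which 20393 had 1 gene symbol in the platform annotation, 691 had several and 1606 had none. A gene was represented by its brightest probe set over the 9 arrays, which gave 12393 genes; symbols were checked by gene ID against a RefSeq table of GRCm38.p6 (20351 probe sets matched). Precision is limited by having 3 arrays per line.

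Values were taken as log2(intensity + 1) and fitted with limma 3.58.1 in R 4.3.3 (lmFit, eBayes) on all 9 arrays, with 1 mean per line and the replicate number as a block, and p-values adjusted over all probe sets. The fit was run on simulated arrays with known changes added, where only the sign and median size of those changes were checked. That run is no check of the calls made here. Equal replicate numbers paired the arrays: deviations from the line means correlated at r of 0.26 to 0.84 in the 9 combinations of lines with equal numbers, against -0.73 to 0.11 in the 18 with unequal numbers. The pairing comes from the data, since the labels name no shared culture or day.

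Genes named are Mycn, Nras, Dcn, Rb1, Rbl1, Rbl2, Cdkn1a and Mdm2 (1 further gene of this rule is not analysed here); all genes with a called probe set; the 15 largest differences in each direction among genes whose higher mean reached 5.93, with one sign in 3 of 3 pairs, no overlap and an unadjusted p under 0.05; and up to 4 genes per list with the smallest unadjusted p under 0.05. Myc, Max, Mcm6, Tgfbi, Ddx1 and other neighbours of Mycn were named after their values were seen. The comparison, the 45 gene lists and the 8 marker lists were chosen with earlier results of these data known, and lists are described by counts with no list test. Promoter windows came from RefSeq. Alternatives were other scalings, pseudocounts, filters, eBayes settings, averaging a gene's probe sets, the fit without the block and leaving out each array.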

Additional observations from a re-analysis of the deposited data

Results flagged for a closer look

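Of the 14 called probe sets, 2 are paired with no single gene. The probe set 1419022_a_at, unnamed here, read 9.83, 9.94 and 11.44 in NIH 3T3 and 11.54, 11.58 and 12.74 in SV5, a difference of 1.55 (SE 0.16, adjusted p = 0.048 in limma), and the lines did not overlap. The array control for the middle of Gapdh read 9.01, 8.79 and 9.99 against 10.40, 10.38 and 11.74, a difference of 1.57 (SE 0.17, adjusted p = 0.048), also with no overlap. Both were called without being part of any comparison of genes, and the Gapdh control is the one whose ratio to the 3' probe set was lower in SV5.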

How the results depend on the processing

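The count of 14 called probe sets depended on the setting. With no replicate block, that is without the pairing, it was 1, and with only the 6 arrays of both lines it was 0. It was 0 with a pseudocount of 16, with arrays centred on their medians, after quantile normalization and with robust eBayes, 6 with an intensity trend in eBayes and 1 when the probe sets of a gene were averaged. With probe sets of the brighter ones, or of those above the bacterial controls, it was 13. Leaving out 1 array gave 0 to 49. None of the 12 called probe sets with a symbol changed sign; Mycn was called in 8 of 19 other settings and the others in 1 to 4 of 17 to 19. Near-zero differences changed sign. With 1 array left out, Dcn, at 0.10, ranged from -0.34 to 0.46, Rb1, at -0.17, from -0.41 to 0.19, and Rbl1, at 0.16, from -0.43 to 0.91. So did the brightest probe sets of Fam8a1, from -0.079 to 0.10, Zfand3, from -0.084 to 0.26, and Il13ra1, from -0.024 to 0.15. Quantile normalization gave Fam8a1 -0.046 and Zfand3 -0.073, and averaged probe sets gave Rbl1 -0.030 and Il13ra1 -0.49. The causes were not tested. With 3 arrays per line, the precision is limited by their number, and dim probe sets near the bacterial controls have only a small range in which to fall.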

Other observations

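Leaving out NIH 3T3 replicate 1, the array that paired least with the others, gave 49 called probe sets, 38 higher and 11 lower in SV5. These genes were picked after their values were seen. Both probe sets of Hspa1b, an inducible heat shock protein, were among the higher ones, at 2.41 and 1.74 (1.93 and 1.33 with all arrays). Genes of DNA replication were there too: Pcna, the polymerase clamp, at 1.36 (0.69 with all arrays), Topbp1, a replication initiation and checkpoint factor, at 1.46 (0.81), Prim1, a primase subunit, at 1.20 (0.82), Slbp, which binds the histone mRNA stem-loop, at 1.17 (0.66), and Mcm2, a helicase subunit, at 1.17 (0.99). For Prim1 and Mcm2 the called probe set is not the brightest of the gene, which with all arrays differed by 0.27 and 0.15. Lower were Sfrp2 at -2.89 (-1.95), Kdm5d at -2.24 (-1.72) and Rian, an imprinted noncoding RNA gene, at -1.53 (-1.34).

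Of 8 measured Y-linked genes, Kdm5d and Eif2s3y differed by -1.72 and -1.39, without overlap between lines, and both SV5 and SV5-NN4 read low. The other Kdm5d probe sets differed by -0.26 and -0.16. In SV5 Eif2s3y read 3.56 to 3.92, within the range of the bacterial controls. Eif2s3y reached 7.16 on the highest NIH 3T3 array and 4.04 on the lowest, and its pairs gave -0.48, -0.41 and -3.28. The differences of the other 6, among them Uty, Usp9y and Sry, lay between -0.16 and 0.27. None of these genes was called.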
